A study of Mus musculus with 6 samples.

Results

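The longest stretches of chromatin carrying ubiquitylated histone H2B (H2Bub) in myoblasts are described here. They were found in the authors' list of myoblast peaks: peaks on chromosomes 1 to 19 and X were joined across gaps of up to 3000 bp, and joined stretches of 50000 bp or longer were kept. Of 19877 joined stretches, 654 met this rule and are called long domains below. They covered 48.8 Mb, or 1.85% of the sequence spanned by reads, and held 24.7% of the myoblast peaks and 30.3% of the bases in them.

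The cells were C2C12, a mouse line of muscle precursors whose cells fuse on differentiation. The cell type label reads C2C12 and the source names read C1C12. Growing myoblasts (MB, 3 libraries) were taken at low density in medium with fetal bovine serum, and myotubes (MT, 3 libraries) after 96 h in medium with horse serum. All 6 libraries were made from chromatin digested with micrococcal nuclease (MNase) and precipitated with the same H2Bub antibody clone, per the labels. They held 8767810 to 15903500 reads. The labels do not say what share of the myotube cultures had fused, nor whether the replicates were grown separately, and each p-value therefore refers to the spread among these 6 libraries alone. The labels list a different antibody lot for each library, numbered consecutively, and whether these were truly separate lots is not known here. Fewer cells with the mark and less of the mark per cell cannot be told apart either, and no spike-in or input was analysed here.

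H2Bub is a single ubiquitin placed on histone H2B by the RNF20 and RNF40 ligase with a RAD6 enzyme, and removed by deubiquitylases such as USP22. It is laid down as RNA polymerase II elongates, so it covers the bodies of transcribed genes and is usually strongest downstream of the start site. Nucleosomes are commonly sparse at the start sites of active genes. Cells that leave the cell cycle and differentiate are known to remodel this mark. Genes under the long domains are not named, because the coordinates are on build mm9 and the annotation at hand is on GRCm38.

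The members were chosen from myoblast reads, so their high level in myoblasts, and part of the direction of any difference between the groups, follow from the rule. What the rule did not use is the level and shape of the signal in the myotube libraries, the order of the domains among libraries, the direction of slopes along the domains, and the myotube peak list.

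The long domains were dense clusters of peaks. Their median length was 65.5 kb and the longest spanned 238 kb. Of the 654, 225 were 75 kb or longer and 91 were 100 kb or longer. A domain held 33 to 218 myoblast peaks, with a median of 65. Myoblast peaks covered 64.3% of the domain bases, and between 30.3% and 89.7% of single domains. The same share was 54.7% in the 4672 stretches of 10 to 50 kb, called shorter domains below. Of the 654, 509 had another myoblast stretch of any length within 10 kb, and 80 had another long domain within 50 kb. The rule ends a stretch at any gap over 3000 bp, and the same share was not counted for other stretches. Near neighbours are therefore not shown to be particular to the long domains. At the length limit, the domain just inside was chr11:77370361-77420374 (50014 bp), and the stretch just outside was chr6:52664369-52714321 (49953 bp). The former fell by 2.27 and the latter by 1.73 on the log2 scale, which describes the edge of the rule and tests nothing.

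Long domains were unevenly spread over the chromosomes. Chromosome 15 had 41.5 per 100 Mb, chromosome 2 had 39.1 and chromosome 11 had 38.6, whereas chromosome 7 had 13.1 and chromosome X had 3.60. All myoblast peak bases were spread in a similar way. Chromosomes 15, 2 and 11 held 6.575%, 10.86% and 7.19% of the long domains and 5.84%, 9.06% and 6.92% of the peak bases. Chromosomes 7 and X held 3.06% and 0.917% of the long domains and 3.79% and 1.49% of the peak bases. The 43 domains of chromosome 15 were also long, with a median of 78.7 kb. In peak-free sequence, read density on chromosome 15 was 1.20 to 1.31 times that of all chromosomes in the 6 libraries, and on chromosomes 7 and X it was 0.755 to 0.857 and 0.714 to 0.858 times. The part of read density in these counts was not tested.

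One myotube library stood apart from the others over these domains. MT replicate 2 placed 2.65% of its reads in the long domains, against 4.09% and 3.96% in MT replicates 1 and 3. The main comparisons and the named domains it moves most are therefore given with and without it.

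The long domains held a much smaller share of the reads in myotubes. The myoblast libraries placed 13.8%, 15.4% and 12.2% of their reads there. All myotube libraries lay below all myoblast libraries. The myoblast mean was 13.8% ± 1.57 against 3.57% ± 0.799 in the myotube libraries (SD, n = 3 each), 3.87 times lower (exact permutation test, two-sided, p = 0.1, the smallest that 3 against 3 libraries allow). Without MT replicate 2 the myotube mean was 4.03%. In this and the other comparisons of single values per library, 8 in all, no p could reach 0.05, and the lowest p adjusted over the 8 (Benjamini-Hochberg) was 0.2.

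Measured against nearby chromatin, a low level of signal was left over the domains in myotubes. Local background here is the read density of 1 kb bins without a peak of either list, within 250 kb of a domain, in the same library. Density over the domains was 7.55, 8.27 and 5.97 times local background in MB replicates 1, 2 and 3. It was 1.75, 1.16 and 1.65 times in MT replicates 1, 2 and 3. The groups did not overlap, and every myotube library stayed above 1. The means were 7.26 ± 1.17 and 1.52 ± 0.317 (SD, n = 3; by exact permutation, two-sided, p = 0.1), and the myotube mean was 1.70 without MT replicate 2. A joining gap of 1000 bp, which keeps fewer and denser domains, gave 10.5 and 1.75. Background bins without any read were left out, and the ability to map reads was not analysed here. Myotube peaks were taken out of the background but kept in the domains. Part of a myotube ratio above 1 can therefore follow from this definition.

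**Figure D1:**
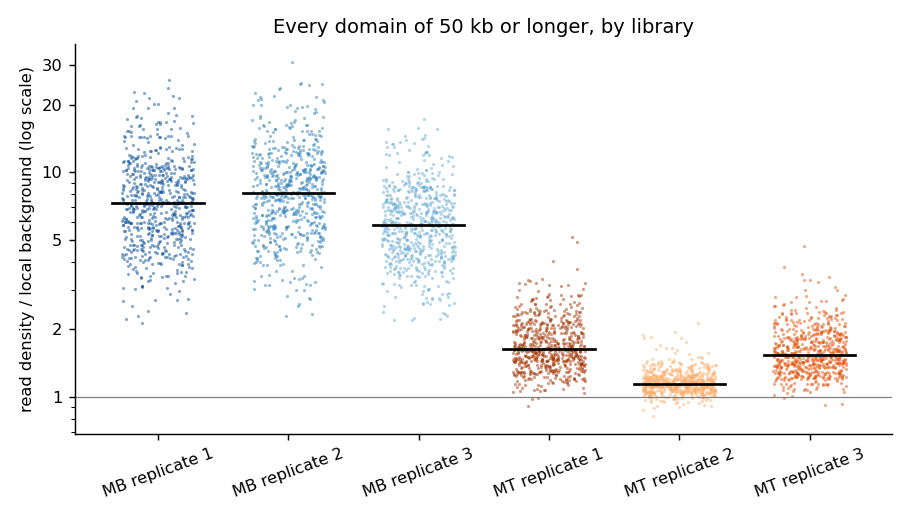
Read density over each of the 654 long domains divided by local background, on a log scale, with 1 point per domain and the median as a black line for each library. Myoblast medians lie between 5.85 and 8.07, and myotube medians are 1.63, 1.15 and 1.54.

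Domain by domain, nearly all kept some excess over background in 2 of the 3 myotube libraries. In MT replicates 1 and 3, 3 of 654 domains in each lay below their local background, against 37 in MT replicate 2. Density reached at least 2 times background in 163 domains of MT replicate 1 and in 102 of MT replicate 3, but in 1 of MT replicate 2. In myoblasts every domain was above 2 times background in each library, with a range of 2.13 to 31.1 over the 3 libraries.

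The residual level had a repeatable order among the domains in MT replicates 1 and 3. Ranked by density over local background, the 654 domains correlated between these libraries with a Spearman rho of 0.933. With MT replicate 2 the values were 0.2845 and 0.2841. Among the myoblast libraries rho was 0.908 to 0.973. Between groups, it was 0.499 to 0.570 for MT replicates 1 and 3 against the myoblast libraries and 0.188 to 0.203 for MT replicate 2. These points share their background bins and their sequence within a library pair, so the values describe order and carry no test. Domains that were strong in myoblasts thus also tended to rank higher in MT replicates 1 and 3. In the 218 domains with the highest MB replicate 1 level, density was 2.08, 1.19 and 1.88 times background in the 3 myotube libraries. In the 218 lowest it was 1.51, 1.13 and 1.46 times. On this scale the range in myotubes was narrower than in the myoblast libraries not used for the ranking. There the same groups had 12.7 and 5.01 in MB replicate 2 and 8.34 and 3.99 in MB replicate 3. The background is part of each value and weighs more on the low myotube ones, so the excess alone is not compared.

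A fit over all 13218 joined stretches with enough reads gave the change of each long domain. Scaled to total reads, 652 of the 654 were lower in myotubes (limma voom, adjusted p under 0.05), 0 were higher and 2 were not called. Over all stretches tested, 95.8% were called lower and 0.0% higher, and the rule chose the members from myoblast peaks, so nothing is read from the count. For the same reason, the adjusted p-values of single domains below are descriptions. No long domain was higher at an unadjusted p under 0.05 either, and limma-trend also gave 0. In 652 of 654 domains all 3 myotube libraries lay below all 3 myoblast libraries, against 94.1% of all stretches. The median log2 fold change was -1.99, a level 3.97 times lower, beside -1.70 for the shorter domains and -1.39 over all stretches. From the 5th to the 95th percentile the long domains ran from -2.60 to -1.21. The median was -2.01 at 50 to 75 kb, -2.005 at 75 to 100 kb and -1.92 at 100 kb or longer, and the rank correlation of length with the change was 0.05. Domains more filled with myoblast peaks fell further (Spearman rho -0.566 over 654 domains, a description, since both measures use the myoblast reads). With background scaling, which sets the libraries equal over 10 kb windows, most of them without peaks, all 654 were lower (99.9% of stretches) with a median of -2.70, and the median of all stretches moved to -2.09.

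The 5 longest domains fell by 1.69 to 2.26 on the log2 scale. The longest, chr15:52937839-53176072, had 792, 904 and 750 reads per 1000000 reads (RPM) in myoblasts and 317, 170 and 304 RPM in myotubes. MT replicate 2 was again the lowest, and the groups did not overlap (log2 fold change -1.69 with an SE of 0.30 and a limma adjusted p of 4.985e-06). It held 187 myoblast and 110 myotube peaks. The second longest, chr15:64001032-64213003 (212 kb), had 664, 786 and 638 RPM in myoblasts against 244, 172 and 240 RPM in myotubes. It carried 70 myotube peaks. The domain chr16:24498956-24692154 (193 kb) had a log2 fold change of -1.91 and 3 myotube peaks. The domain chr15:61871152-62049085 (178 kb) had -2.13 and 18, and chr13:15558005-15735571 (178 kb) had -2.26 and 3. In the last, the 3 myotube libraries were level at 100, 102 and 97.7 RPM, unlike in the first pair. These 5 domains had log2 fold changes of -2.28 to -1.39 without MT replicate 2. Domains of similar length thus differed widely in how many myotube peaks they held. Those with 110, 70 and 18 all lay on chromosome 15, which held 3457 myotube peaks on 103 Mb. Chromosome 16 held 991 on 98.3 Mb and chromosome 13 held 1142 on 120 Mb, so the contrast is also one between chromosomes.

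The domain with the largest fall was chr4:154864343-154933654 (69.3 kb). Its level was 373, 425 and 334 RPM in myoblasts and 47.7, 30.1 and 50.4 RPM in myotubes (log2 fold change -3.19 with an SE of 0.26, limma adjusted p = 1.85e-11). The domain was picked for its fall, so this p is a description only. It was among the denser domains in myoblasts, at 17.5, 17.8 and 11.2 times local background, and had 1.59, 1.12 and 1.47 times in myotubes. Next came chr17:32344748-32420831 (76.1 kb, log2 fold change -2.95) and chr5:53983216-54043827 (60.6 kb, -2.93). They were followed by chr11:29594248-29646995 (52.8 kb, -2.85) and chr2:90781148-90851228 (70.1 kb, -2.80). Their log2 fold changes ran from -2.94 to -2.45 without MT replicate 2. A large fall did not mean an absence of myotube peaks: these 5 domains held 7, 25, 11, 17 and 15 of them. In MT replicate 1 the chromosome 17 and chromosome 11 domains were still at 2.38 and 2.49 times local background.

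Among the domains with the smallest falls, MT replicates 1 and 3 came close to the myoblasts in the 2 that were not called. At chr10:39091325-39220367 (129 kb) the myoblast libraries had 203, 236 and 242 RPM and the myotube libraries 217, 82.1 and 212 RPM. MT replicates 1 and 3 lay inside the myoblast range and MT replicate 2 far below it. The log2 fold change was -0.55 (SE 0.30, limma adjusted p = 0.08255), one of the 2 domains not called. Relative to local background the myoblast values were 4.15, 4.61 and 4.24 and the myotube values 2.74, 1.10 and 2.66, so against nearby chromatin every myotube library was lower. Without MT replicate 2 the log2 fold change was -0.08 (limma adjusted p = 0.6573), and without MT replicate 1 or 3 it was -0.82 or -0.75 (limma adjusted p = 0.009933 and 0.02505). With background scaling the log2 fold change was -1.25 (limma adjusted p = 0.0001705). Myotube peaks covered 38.1% of this domain. Peak-free read density on the whole of chromosome 10 was 1.09, 1.06 and 1.10 times that of all chromosomes in the myoblast libraries. In the myotube libraries it was 1.18, 1.20 and 1.17 times, and its part in the small fall was not tested.

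The other domain not called was chrX:166323769-166386099 (62.3 kb). It had 124, 127 and 82.1 RPM in myoblasts and 111, 33.9 and 107 RPM in myotubes (log2 fold change -0.60 with an SE of 0.31, limma adjusted p = 0.06541). Without MT replicate 2 the log2 fold change was 0.01 (limma adjusted p = 0.9758), without MT replicate 1 or 3 it was -0.92 or -0.84 (limma adjusted p = 0.001197 and 0.004384), and with background scaling -1.30. With a replicate block it was called lower (-0.70, limma adjusted p = 0.0278). Myotube peaks covered 38.3% of it. The remaining 3 were chr10:13771520-13844664 (-0.58), chr6:101135406-101214697 (-0.83) and chr15:50607959-50716947 (-0.85). The first of these was called with an adjusted p of 0.02487 (limma). Its log2 fold change shrank to -0.31 without MT replicate 2 (limma adjusted p = 0.08833). It was also not called with a replicate block (-0.60, limma adjusted p = 0.05657) or without any 1 of the myoblast libraries (-0.60 to -0.54, limma adjusted p = 0.06044 to 0.09712), although its size was then nearly the same. In all 3 of these remaining domains, MT replicates 1 and 3 lay below every myoblast library. Without MT replicate 2 the chromosome 6 and chromosome 15 domains had log2 fold changes of -0.57 and -0.66.

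**Figure D2:**
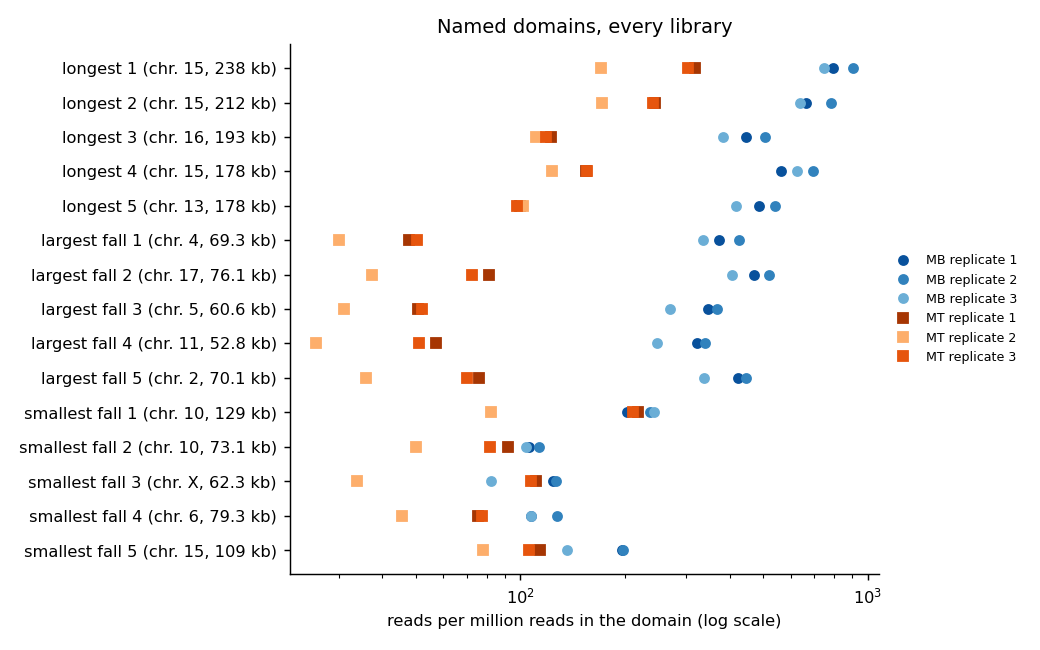
Reads per 1000000 reads in the 5 longest domains and in the 5 with the largest and the 5 with the smallest fall, on a log axis, with circles for myoblast and squares for myotube libraries. In the domain with the smallest fall, MT replicates 1 and 3 lie among the myoblast libraries and MT replicate 2 lies at 82.1.

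The fall ran through the whole length of nearly all domains. Of 4235 windows of 10 kb lying wholly inside a long domain, 4220 were lower in myotubes and 0 higher in a fit over all 233817 windows (limma voom). Across the genome 13.1% of windows were lower and 70.9% higher, and again the rule had chosen myoblast peaks. No window inside a domain was higher at an unadjusted p under 0.05, and limma-trend gave 0 higher and 4218 lower. The median log2 fold change was -1.82 in windows under 10 kb from an end, -1.92 at 10 to 25 kb and -1.91 at 25 kb or more. The 15 windows not called lay in 5 domains, 9 of them in the chromosome 10 domain with the smallest fall. With background scaling all 4235 windows were lower, beside 18.6% of windows lower and 2.09% higher in the genome.

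The domains were sloped in myoblasts. To see this, each domain was turned so that the side with more reads of MB replicate 1, left or right of its midpoint, came first. That side is called the high side, its outer boundary the high end, and MB replicate 1 was then left out of the comparison. In MB replicates 2 and 3 the high side held 1.53 and 1.49 times the reads of the low side, and 95.4% and 93.9% of domains had the same high side as MB replicate 1. The slope was thus shared by nearly all domains in libraries that did not set it. In the second of 20 equal steps from the high end, density was 11.1 and 7.93 times local background in MB replicates 2 and 3. In the last step at the low end it was 4.81 and 3.71 times.

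The slope was much shallower in myotubes and was not seen in 1 of the 3 libraries. The high side held 1.12 times the reads of the low side in MT replicates 1 and 3, and 0.982 times in MT replicate 2. The same high side as in MB replicate 1 was found in 69.1%, 43.3% and 70.6% of domains in MT replicates 1, 2 and 3. The mean ratio was 1.51 ± 0.0249 (SD, n = 2) for myoblasts against 1.08 ± 0.0808 for myotubes (SD, n = 3, by an exact permutation test, two-sided, p = 0.2, the smallest that 2 against 3 allow), and 1.12 in myotubes without MT replicate 2. With a joining gap of 1000 bp the means were 1.30 and 1.05. From the second step to the last, density went from 1.94 to 1.52 times background in MT replicate 1 and from 1.80 to 1.48 in MT replicate 3. It was 1.16 and 1.19 in MT replicate 2. Counted as excess over local background, the high side exceeded the low side 1.62 times in MB replicates 2 and 3, and 1.31, 0.879 and 1.34 times in the myotube libraries. This ratio was lower in each myotube library than in each myoblast library.

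**Figure D3:**
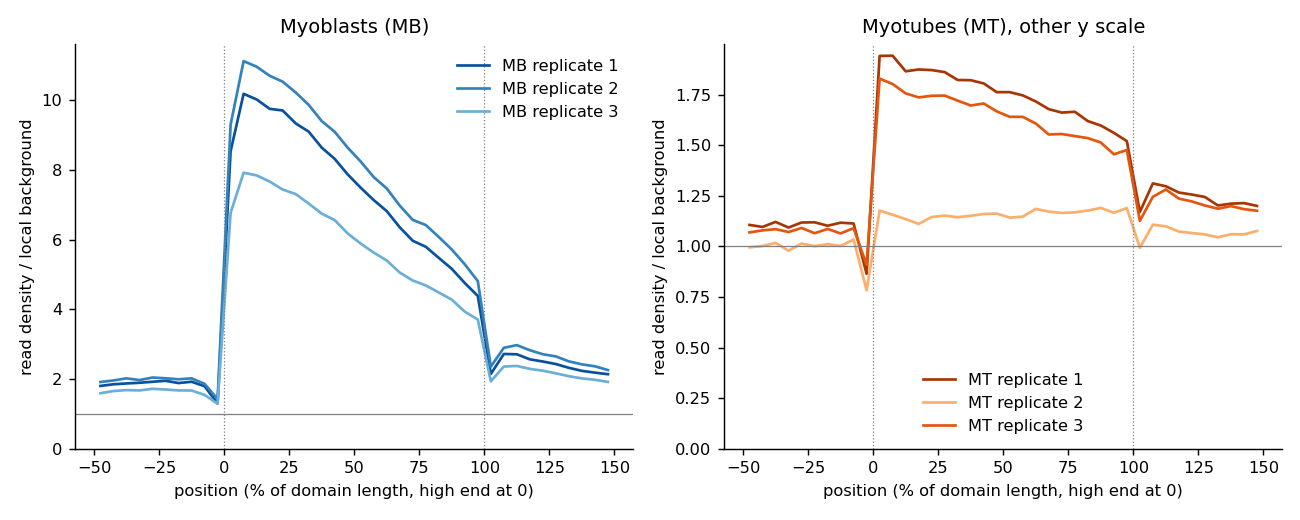
Read density divided by local background along the 654 long domains and flanks of 50% of their length, as a percentage of domain length, with the high end at 0 and 1 line per library (the y scales of the panels differ). From the second step to the last, MB replicates 1, 2 and 3 fall from 10.2, 11.1 and 7.93 to 4.39, 4.81 and 3.71, MT replicates 1 and 3 fall from 1.94 and 1.80 to 1.52 and 1.48, and MT replicate 2 is flat near 1.16.

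The ends of the domains differed from each other, also in the myotube libraries. From 1 to 3 kb outside the high end, read density was 0.831, 0.753 and 0.864 times local background in MT replicates 1, 2 and 3. At the same distance from the low end it was 1.12, 0.963 and 1.09 times. In every myotube library density was thus below background outside the high end and lower there than outside the low end, and MT replicate 2 showed this as well. The ratio of the former to the latter was 0.739, 0.781 and 0.790 in MT replicates 1 to 3, and 0.543 and 0.609 in MB replicates 2 and 3 (exact permutation test, two-sided, n = 2 against 3, p = 0.2). Outside the low end the myoblast libraries were at 1.77 to 2.12 times background, and outside the high end at 1.08 to 1.15. A gap of over 3000 bp without a myoblast peak follows from the rule at either end alike. This comparison was chosen after the profiles were seen, and its difference of 0.195 became 0.0929 when the first kb outside each end was included. Base composition and the ability to map reads at the ends were not tested.

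Inside the high end the signal rose over a few kb in myoblasts. In MB replicate 2 it was 7.06 times background in the first kb, 9.27 in the next and 11.01 in the fourth. In MT replicate 1 the same steps were 1.86, 1.95 and 2.02, so the myotube signal was near its full height within the first kb. At the low end MB replicate 2 started at 4.73 and had reached 6.31 in the 15th kb. MT replicate 1 had 1.555 and 1.60 there.

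**Figure D4:**
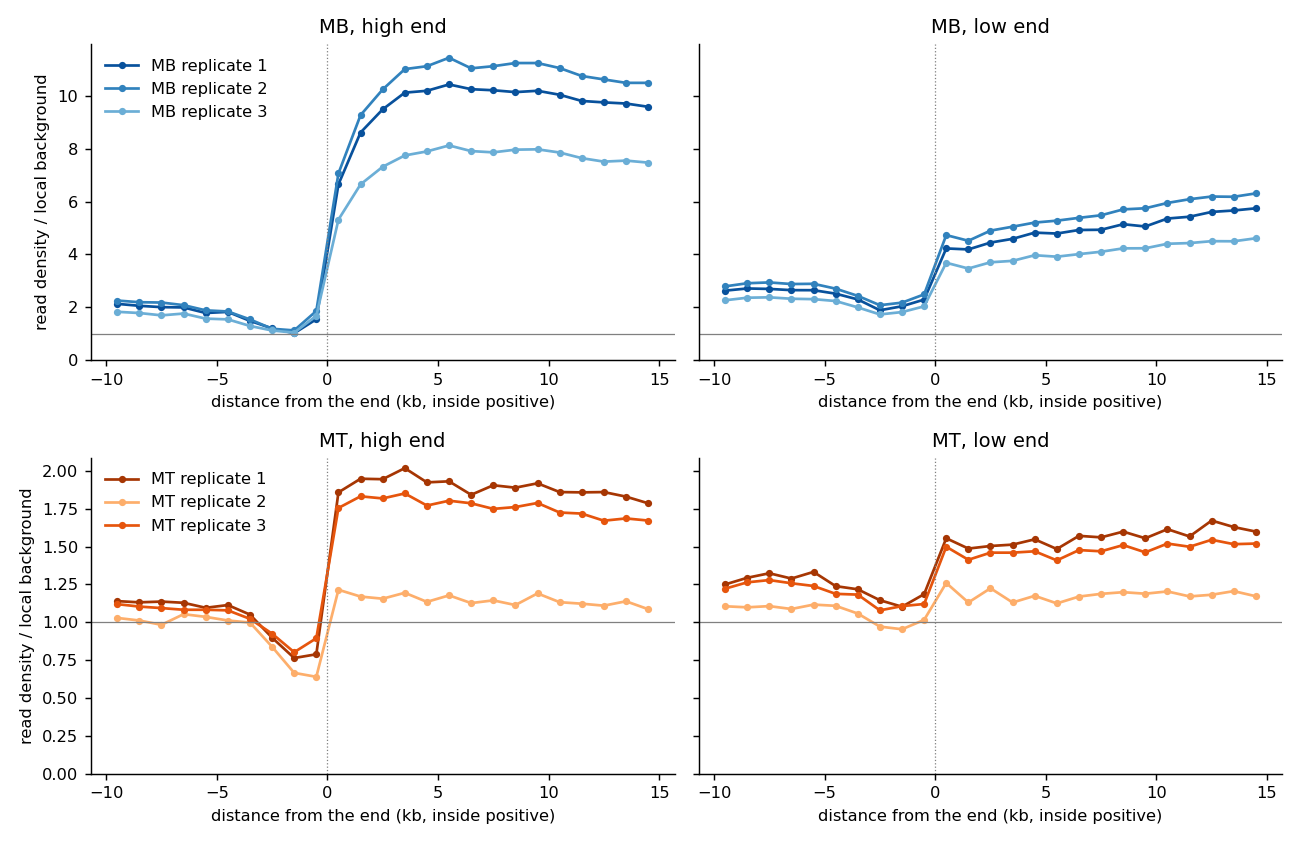
Read density divided by local background in 1 kb steps from 10 kb outside to 15 kb inside the high end (left) and the low end (right), with myoblast libraries above and myotube libraries below (y scales differ between rows). All 3 myotube libraries dip below 1 within 3 kb outside the high end.

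Without turning the domains, the outer 10% at each end was weaker than the middle in myoblasts and close to it in myotubes. The excess over background in these outer stretches was 0.890, 0.891 and 0.905 times that in the middle 20% of the domain in the myoblast libraries. The ratio was 0.964, 1.13 and 0.966 in MT replicates 1, 2 and 3. The means were 0.895 ± 0.00851 and 1.02 ± 0.0934 (SD, n = 3; by exact permutation, two-sided, p = 0.1). The difference of 0.124 fell to 0.0698 without MT replicate 2, and the groups still did not overlap. Among domains of 75 kb or longer it was 0.0598 (exact permutation, n = 3, p = 0.2), and the groups overlapped. The rule begins and ends each domain at a myoblast peak, so part of the shape in myoblasts follows from it.

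In the myotube libraries, reads still favoured the bases that had been called peaks in myoblasts. In myoblasts the bases in peaks had 3.69, 3.74 and 3.57 times the read density of the gaps between them, which the peak calls fix. In the myotube libraries, which did not make these peaks, the same ratio was 2.08, 1.77 and 2.04. All 3 were thus still denser in the myoblast peak bases than between them. The means were 3.66 ± 0.0888 in myoblasts and 1.96 ± 0.169 in myotubes (SD, n = 3), and 2.06 in myotubes without MT replicate 2. Since the myoblast reads made the peaks, the direction of this difference follows from the rule, and its p says nothing further. The myotube signal in the gaps was at 1.05, 0.785 and 0.995 times local background, while the peak bases were at 2.175, 1.39 and 2.03 times. In MT replicates 1 and 3 an excess over this background was thus measured in the peak bases and little or none in the gaps. Background bins without any read were left out and the gaps kept all bases, so a small excess in the gaps can be hidden. The gaps of MT replicates 1 and 3 were above those of MT replicate 2. In myoblasts the gaps themselves were at 2.265 to 3.015 times background. Mapping in the gaps was not analysed here. When reads were moved to the nucleosome centre, the myoblast mean became 2.93 and the myotube mean 1.86.

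Relative to sequence, myotube peaks were concentrated in the long domains, about as much as myoblast peaks were. Of 25743 myotube peaks on these chromosomes, 6805 lay in a long domain, or 26.4% on 1.85% of the sequence. The same domains held 24.7% of all myoblast peaks and 30.3% of the bases in them, as the rule favours. The myotube peaks numbered 139 per Mb of long domain, against 65.0 in the shorter domains and 9.76 over all sequence. At least 1 was found in 599 of the 654 domains (91.6%, Wilson interval 89.2 to 93.5, which covers counting error only) and none in 55. For the shorter domains it was 2418 of 4672 (51.8%), and a longer stretch has more room for a peak. A long domain held up to 120 myotube peaks, with a median of 5. Of these peaks, 96.7% overlapped a myoblast peak, and 92.7% of their bases lay in myoblast peak bases, which made up 64.3% of the domains. Conversely, 11.2% of the 47164 myoblast peaks in long domains overlapped a myotube peak, against 5.35% in the shorter domains. These are counts from 1 list per group, with no replicate error. The domains of chromosome 15 held 1015 of the 3457 myotube peaks on that chromosome, and those of chromosome 10 held 577 of 2599. Peak-free read density was raised on both chromosomes, and more in the myotube libraries. Relative to all chromosomes it was 1.29 to 1.31 times on chromosome 15 and 1.17 to 1.20 times on chromosome 10 in the myotube libraries. In the myoblast libraries it was 1.20 to 1.24 and 1.06 to 1.10 times. Its part in these counts was not tested.

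A few domains were covered by myotube peaks over much of their length. The share of bases was 63.4% in chr17:10456457-10510175 (53.7 kb) and 46.7% in chr17:10394968-10453230 (58.3 kb), neighbours 3226 bp apart. It was 43.8% in chr15:27783688-27954039 (170 kb), which held the 120 peaks named above. The first of the chromosome 17 pair had 416, 403 and 283 RPM in myoblasts and 153, 26.9 and 146 RPM in myotubes (log2 fold change -2.14 with an SE of 0.42, limma adjusted p = 2.685e-05). MT replicates 1 and 3 stood at 5.18 and 4.69 times local background there, the highest of all 654 domains in each, and MT replicate 2 at 0.878. Without MT replicate 2 its log2 fold change was -1.27, beside a median of -1.80 for the long domains in that fit, so whether it fell by more or less than the median depends on that library. The chromosome 15 domain had 339, 112 and 329 RPM in myotubes against 533, 654 and 635 RPM in myoblasts (log2 fold change -1.40, and -0.86 without MT replicate 2). For the other domain of the chromosome 17 pair the values were -1.59 and -0.98.

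Along the turned domains, myotube peaks lay nearer the high end. The high side held 61.5% of them and 48.3% of the myoblast peaks. The first 10% of the length from the high end had 958 (14.1%, Wilson interval 13.3 to 14.9) and the last 10% had 356 (5.23%, 4.73 to 5.79). These intervals treat peaks as independent, although 1 domain held up to 120 of them and the median was 5. They are thus too narrow to cover differences between domains or libraries. Myoblast peaks were nearly even, with 9.89% and 10.6% in the same stretches. Within 5 kb of the high end lay 8.89% of the myotube peaks, and within 5 kb of the low end 3.26%, where each holds 6.70% of the bases. The myotube list was not used to turn the domains. These are counts of peaks and not of signal, since myoblast peaks were nearly even where myoblast reads were sloped. In reads, the high side held 1.53 and 1.49 times the low side in MB replicates 2 and 3. It held 1.12, 0.982 and 1.12 times in MT replicates 1, 2 and 3. What each library gave to the myotube list is not known here.

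**Figure D5:**
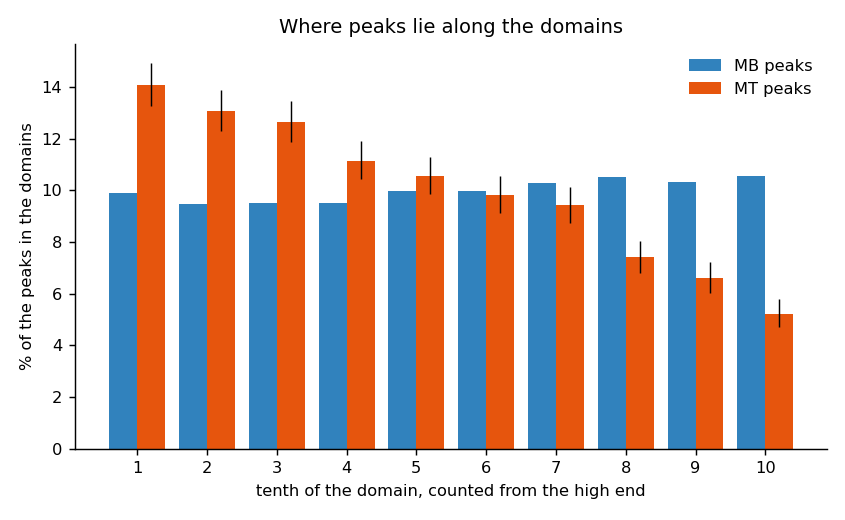
Share of the myotube and of the myoblast peaks of the long domains in each 10% of the domain length from the high end, with 95% Wilson intervals on the myotube bars. The intervals treat peaks as independent and do not cover differences between domains. Myotube bars fall from 14.1% to 5.23% and myoblast bars stay between 9.46% and 10.6%.

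Whether the long domains changed otherwise than the shorter ones was tested on the ratio of their read densities. The long domains had 1.26, 1.25 and 1.21 times the density of the shorter ones in the myoblast libraries and 1.21, 1.04 and 1.19 times in the myotube libraries. The means were 1.24 ± 0.0278 and 1.15 ± 0.0934 (SD, n = 3; by exact permutation, two-sided, p = 0.2). The difference of -0.0934 became -0.0398 without MT replicate 2. Counted as excess over local background the ratio was 1.26, 1.25 and 1.23 in myoblasts and 1.48, 1.02 and 1.49 in myotubes, so the direction turned (p = 0.5, exact permutation, n = 3 against 3). A difference between long and shorter domains in their change was therefore not shown.

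The spacing of nucleosomes inside the long domains was not seen to differ between the groups. The most common distance between reads of the plus strand, between 150 and 250 bp, was 163, 165 and 163 bp in myoblasts and 165, 174 and 160 bp in myotubes (n = 3 against 3, p = 0.8 by a two-sided exact permutation test). In peak-free sequence around the domains it was 175, 189 and 180 bp and 177, 186 and 175 bp, longer in each of the 6 libraries. With minus-strand reads it was longer in 4 of the 6. The maxima were shallow, at most 1.06 times the minimum before them, and no falling trend was taken out, so the distances are rough.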

How the data were processed

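The authors deposited, per library, where each mapped read lay (chromosome, coordinate, strand), and per group a list of H2Bub peaks without scores, on build mm9 per the submitters' processing notes. These positions are coordinates and not measured values. Not given in the sources used here: the aligner, its filters, the peak caller, its threshold and any pooling. No position was repeated on a strand within a library, so very dense sites can be compressed. Minus-strand coordinates were treated as leftmost bases, because plus-strand reads preceded minus-strand reads by 98 to 108 bp. Starts were taken to count from 0 and are printed from 1.

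Reads were counted here per joined stretch and per 10 kb window, with library size as total reads on chromosomes 1 to 19 and X. A region was tested if 3 libraries reached 10 reads, scaled to the median library, and all libraries together 15. All 654 long domains passed. The fit over the whole table used voom weights and the moderated two-sided test of limma 3.58.1 without a block, in R 4.3.3, with Benjamini-Hochberg adjustment and a threshold of 0.05. The script was tested on simulated data. Single values per library were compared by exact permutation. Background scaling used trimmed mean of M-values factors over the windows (0.719 to 1.33). Counting, permutation and plotting ran in Python 3.11.15 with SciPy 1.17.1, NumPy 2.4.6, matplotlib 3.10.9 and pandas 2.3.3.

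Named domains were the 5 longest, the 5 with the largest and the 5 with the smallest fall, the 5 with the largest share of bases in myotube peaks, and those at the length limit. The members, tests and alternatives were chosen with earlier results of these data known. Alternatives covered the floor on reads, scaling, leaving out each library, a replicate block, limma-trend, the joining gap, the length limit, shifted positions, the extent of the background, the definition of the ends and the library that set the high side. Gene names and sequences were not used here, as the annotation is on another build.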

Additional observations from a re-analysis of the deposited data

How the results depend on the processing

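Of 362 alternative values, 337 were labelled the same. For tests this meant the same direction and side of the threshold. Single values per library could not pass the threshold, so for them only a turned direction could count, whatever the size. Counts had to stay within a fixed factor, median changes within the replicate spread, and the share of domains with a myotube peak within its Wilson interval. The median log2 fold change of the long domains was -2.70 with background scaling and, chosen after the data were seen, -2.48 with background scaling without MT replicate 2. For the windows inside them it was -2.61 and -2.38. Joining gaps of 1000 and 5000 bp gave other sets of domains, of which 115 of 115 and 1007 of 1010 were lower. The share of reads in them then differed between the groups by -2.33 and -14.4 percentage points, since they cover less or more sequence, and by -4.89 points for domains of 75 kb or longer. Of those, 97.8% held a myotube peak. With 1 library left out at a time, 651 to 654 domains (median -2.11 to -1.80) and 4181 to 4232 windows (-1.97 to -1.70) were lower. The same range was -11.0 to -9.44 points for the share of reads, -6.39 to -5.24 for density over background, -0.126 to -0.0398 for long against shorter domains, 0.0698 to 0.151 for ends against middle, -0.458 to -0.388 for high against low side, 0.162 to 0.228 outside the ends, -1.76 to -1.61 for peaks against gaps and -1.17 to 5.83 bp for spacing. Without MT replicate 2 the difference in spacing turned to -1.17 bp. As excess over background, long against shorter domains turned to 0.0867, and to 0.242 without MT replicate 2. The X domain turned to 0.00544 without MT replicate 2 (range over libraries left out -0.924 to 0.00544), and the cause was not tested. The high side could not be compared without MB replicate 1, which set it. With a replicate block, 652 domains and 4226 windows were lower. Of the named domains it moved 2 across the threshold: chr10:13771520-13844664 (limma adjusted p = 0.05657, no longer called) and the X domain (0.0278, now called). Deviations of same-numbered libraries had correlations of 0.0924, -0.0181 and 0.198 over stretches, and replicate numbers were therefore not treated as pairs. MB replicate 2 had its highest correlation with another number.

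Signal in MT replicate 2 was close to background, so the slope and the order of the domains in myotubes rest on MT replicates 1 and 3, while a smaller excess was measured in MT replicate 2 as well.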
